A study of Arabidopsis thaliana with 9 samples.

Results

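The transcriptome described here is that of whole Col-0 seedlings, the wild-type reference accession of Arabidopsis thaliana. It rests on the 3 of the 9 mRNA-seq libraries of the study whose genotype label is Col-0, and all 32823 genes in their files were ranked by the mean of the 3. The seedlings were 2 weeks old, received no treatment, and grew in long days of 16 h light at 22 °C and 8 h dark at 18 °C. The other 6 libraries, of the mutants cyp71-3 and se-1, were not used. The labels do not say whether the 3 libraries came from separate cultures or harvests, so the spread between them may be technical. The values are FPKM, fragments counted per length of transcript and per library total, a unit that allows levels to be compared between genes of different length. Values in series are those of replicates 1, 2 and 3, errors are SDs over these 3 libraries, and CV is the SD divided by the mean. In whole seedlings, a low level can mean few cells of a type or little RNA per cell, and these cannot be told apart.

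In a green seedling, most cells that photosynthesise are leaf mesophyll cells. Antenna proteins bind chlorophyll and pass light energy to photosystems II and I, which drive electrons to ferredoxin and protons across the thylakoid membrane. Rubisco then fixes CO2 in the Calvin cycle, and photorespiration recycles the product made when Rubisco takes up oxygen. The nucleus encodes the antenna, the small subunit of Rubisco and many photosystem subunits, while the chloroplast genome encodes the Rubisco large subunit and the reaction centre cores.

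Nuclear genes of photosynthesis led the seedling mRNA. The small subunit gene RBCS1A was the highest protein-coding gene at 16394, 15920 and 16121 FPKM, and it alone held 1.91% ± 0.00597 of the summed FPKM of protein-coding genes. The antenna gene CAB1 followed at 10402, 9952 and 10218 FPKM. The next were RBCS3B at 8681, 8373 and 8494 FPKM and RCA, encoding Rubisco activase, at 8308, 8157 and 8341 FPKM. The values of RBCS3B lay above those of RCA in all 3 libraries, without overlap. PSBR, a small subunit of photosystem II, had 7216, 6824 and 7170 FPKM, and its range overlapped that of the antenna gene LHB1B2 at 6911, 6570 and 6863 FPKM. RBCS2B, at 6778, 6563 and 6626 FPKM, overlapped LHB1B2 as well, although within each library the order of the 3 was the same. The metallothionein MT2B, a small cysteine-rich metal-binding protein, was the sole gene outside the photosynthesis lists among the 25 highest coding genes, at 4841, 4517 and 4877 FPKM.

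**Figure D1:**
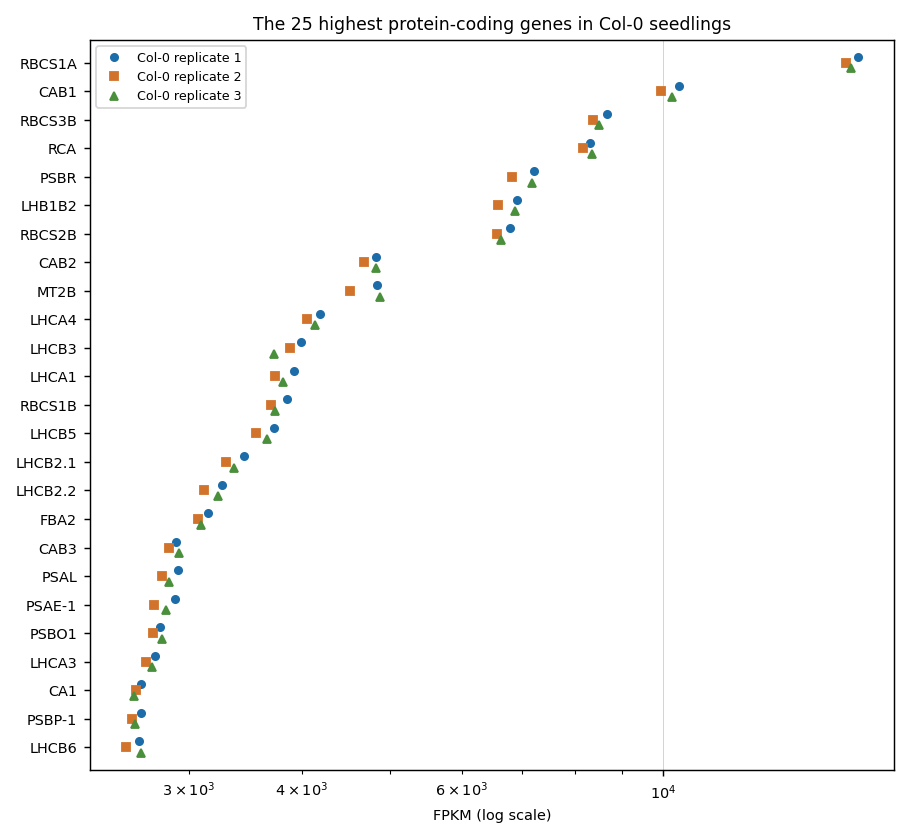
FPKM (horizontal log axis) of the 25 highest protein-coding genes, ordered by mean from the top, with 1 point for each Col-0 replicate. RBCS1A stands at about 16145 FPKM in the mean, and the points of most neighbours below the first 4 genes overlap.

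Of the lists, 9 covered light capture and carbon fixation: antenna, photosystem I, photosystem II, electron carriers with the chloroplast ATP synthase, Rubisco small subunit, Calvin cycle, carbonic anhydrase, photorespiration and chlorophyll synthesis. Their 143 genes held 24.99% ± 0.0882 of the coding FPKM sum. They supplied 24 of the 25 highest coding genes and 70 of the 100 highest. The antenna was the largest of the 9 at 7.17% ± 0.0417, before the Rubisco small subunit at 4.14%. All 42 functional lists together, with 1048 genes, held 40.4% ± 0.170 of the coding sum, and 86 of the 100 highest coding genes were in a list.

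The order of the leading genes depended on which genes were counted. Over all genes in the files, the highest was U6-1, which encodes a small nuclear RNA of the spliceosome and is annotated at 101 bp, at 43591, 46755 and 27368 FPKM. AT1G18430, an aspartate tRNA gene of 72 bp, was listed at 29660, 0 and 0 FPKM, and the chloroplast gene ATCG00960 at 0, 17487 and 0 FPKM. The tRNA gene and the chloroplast gene were thus high in a single library each and listed at 0 in the others. All 3 were among the 10 highest, which together held 14.7%, 14.0% and 10.4% of the FPKM sum (13.0% ± 2.34). The 10 highest coding genes held 9.16%, 9.05% and 9.16% of the coding sum (9.12% ± 0.0630). Genes annotated under 300 bp held 3.30% to 7.99% of a library's FPKM sum. The shares that follow are therefore of the coding sum unless another is named.

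**Figure D2:**
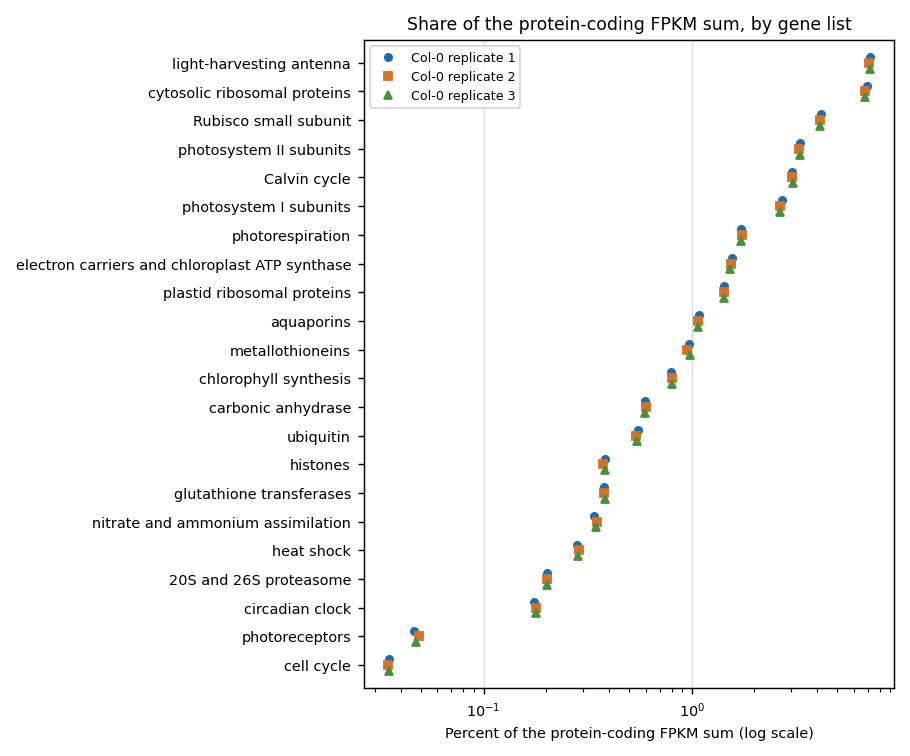
Share of the protein-coding FPKM sum (horizontal log axis, percent) held by 22 gene lists, with 1 point for each Col-0 replicate. The antenna and the cytosolic ribosomal proteins lead at 7.17% and 6.82%, and the points of a list nearly coincide.

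Expression was concentrated in few genes. In the ranking by mean, 496 genes held 50% of the FPKM sum, or 852 genes where FPKM was multiplied by transcript length, and 599 coding genes held 50% of the coding sum (592, 605 and 601 in the single libraries). The 100 highest coding genes held 27.7% ± 0.108 and the 1000 highest 58.0% ± 0.193. Of 27441 coding genes, 18450 had a mean of at least 1 FPKM, 10587 of at least 10, 1330 of at least 100 and 88 of at least 1000. The 88 genes at 1000 FPKM or more held 26.4% of the coding sum, and the 1330 genes at 100 or more held 62.5%. A further 4956 coding genes were listed at 0 in all 3 libraries. Counting all gene types, 18838 ± 19.5 genes per library reached 1 FPKM. The FPKM sums ranged between 881065 and 937136, and protein-coding genes made up 91.5% to 96.3% of them. The 100 highest coding genes had a median annotated transcript length of 1305 bp, against 1733 bp for the 18450 coding genes at 1 FPKM or more.

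The 4 Rubisco small subunit genes summed to 35704, 34557 and 34973 FPKM. RBCS1A alone made up 46.0% of this sum. The other 3, RBCS3B, RBCS2B and RBCS1B, lie in tandem on the minus strand at chr5:15376988-15385320, a span of 8333 bp in the TAIR10.1 assembly, and made up 54.0%. RBCS1B was the lowest at 3851, 3702 and 3732 FPKM, and the ranges of the 4 genes did not overlap. FPKM divides by length, and the longest annotated transcript is 1894 bp for RBCS1B and 935 bp for RBCS2B. It is 1210 bp for RBCS3B and 1268 bp for RBCS1A. The order by fragments was not computed and may differ from the order by FPKM. RBCS1A lies apart from the other 3 genes, at chr1:25048158-25049667 on the minus strand. Of the windows of 100 bases in the transcript of RBCS3B, 12.1% also occur in another transcript, that of RBCS1B, and how fragments shared by these genes were counted is not given in the sources used here. RBCS1A and RBCS2B share no such window.

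All 21 antenna genes were above 10 FPKM and 16 were above 1000. The 5 genes of the main trimeric antenna protein LHCB1 together had 25510, 24515 and 25283 FPKM, which was 41.4% of the antenna sum. Of these, CAB3, CAB2 and CAB1 lie within 6835 bp at chr1:10472280-10479114 yet differed in level. CAB1 had a mean of 10191 ± 226 FPKM, CAB2 of 4779 ± 84.5 and CAB3 of 2896 ± 36.1. The other pair, LHB1B2 and LHB1B1, lies within 3395 bp on chromosome 2 in opposite orientation. LHB1B2 reached 6781 ± 184 FPKM and LHB1B1 456 ± 5.49, and the ranges of the pair were far apart in all 3 libraries. Between 1.51% and 4.44% of the windows of these 5 transcripts were shared with another transcript.

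The remaining high antenna genes were closer to one another. LHCB3, a further trimer component, had 3995, 3882 and 3727 FPKM, and LHCB5, a monomeric linker between trimers and core, had 3725, 3556 and 3659 FPKM. LHCA4 and LHCA1, which form a dimer on photosystem I, had 4123 ± 66.1 and 3823 ± 88.4 FPKM. The 4 main photosystem I antenna genes LHCA1 to LHCA4 summed to 12984 ± 199 FPKM. The lowest members were LHCB4.3 at 83.0 ± 2.12 FPKM and AT1G76570 at 42.0 ± 1.25, and the rare photosystem I antennae Lhca5 and Lhca6 had 239 ± 1.09 and 163 ± 6.94. The antenna genes thus spanned from 42.0 to 10191 FPKM while the CV of each stayed at or below 4.26%.

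The 12 nuclear photosystem I subunit genes lay in a narrower band, from 739 to 2861 FPKM. PSAL, which docks the mobile antenna, led with 2923, 2807 and 2853 FPKM, and PSAE-1, on the stromal side where ferredoxin binds, had 2899, 2747 and 2836 FPKM. Where a subunit has a pair of genes, one copy was higher in all 3 libraries: PSAE-1 against PSAE-2 at 898, 826 and 877 FPKM, and PSAD-1 at 1316 ± 16.5 FPKM against PSAD-2 at 739 ± 18.2. The 15 photosystem II genes were led by PSBR. The oxygen-evolving complex was represented by PSBO1 at 2779 ± 35.0, PSBP-1 at 2628 ± 31.2 and PSBQA at 1778 ± 53.8 FPKM. PSBO2 had 1112 ± 26.3 FPKM, less than PSBO1, and PSBP-2 was the one member below 10, at 4.56 ± 0.347. NPQ4, the PsbS protein that triggers the release of excess light energy as heat, had 2171, 2169 and 2172 FPKM, a CV of 0.0766%. All 48 antenna and photosystem genes together held 12.3% ± 0.353 of the whole FPKM sum.

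Between the photosystems, DRT112, a plastocyanin that carries electrons to photosystem I, had 2516, 2401 and 2470 FPKM. The ferredoxins FED A and FD1 had 2115 ± 49.9 and 1569 ± 29.1 FPKM, and PETC, the Rieske protein of the cytochrome b6f complex, had 1535 ± 65.4. In carbon fixation, RCA was followed by the aldolase gene FBA2 at 3108 ± 40.1 FPKM, GAPA, for a plastid glyceraldehyde-3-phosphate dehydrogenase, at 2310 ± 17.0, and a further aldolase gene, FBA1, at 2055 ± 28.96. GAPB, for another subunit of that dehydrogenase, had 1514 ± 0.695 FPKM. All 20 Calvin cycle genes exceeded 10 FPKM, and the lowest was the transketolase-like AT2G45290 at 13.7 ± 0.749. CA1 and CA2, carbonic anhydrases that interconvert CO2 and bicarbonate, had 2631 ± 24.99 and 1949 ± 19.5 FPKM, while 6 of the 14 carbonic anhydrase genes were below 1 FPKM and 3 of these were listed at 0 throughout.

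Photorespiration had 22 genes, of which 21 exceeded 10 FPKM. GOX1, a glycolate oxidase of the peroxisome, had 1823, 1820 and 1821 FPKM, and the catalase CAT2, which removes the hydrogen peroxide this enzyme makes, had 1759, 1773 and 1781 FPKM. For the mitochondrial steps, GLDP1, a subunit of glycine decarboxylase, and SHM1, serine hydroxymethyltransferase, had 1307 ± 17.8 and 1272 ± 5.61 FPKM. PGLP1, the phosphoglycolate phosphatase of the first step, departed from this steadiness at 11.6, 28.9 and 19.9 FPKM. In chlorophyll synthesis, CRD1, a cyclase subunit, led at 1986 ± 36.7 FPKM, before AT1G74470, annotated as an oxidoreductase, at 926 ± 8.67 and GUN5, a magnesium chelatase subunit, at 794 ± 13.0. HEMA1, the light-regulated glutamyl-tRNA reductase, had 297 ± 1.14 FPKM, and its relative HEMA2 had 8.18 ± 0.427. In storage metabolism, GBSS1, the granule-bound starch synthase, had 528 ± 1.78 FPKM and exceeded every other gene of the starch and sucrose list, the next being APL1 at 199 ± 4.03.

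Protein synthesis formed the other large block. The 211 cytosolic ribosomal protein genes held 6.82% of the coding sum and 6.37% ± 0.158 of the whole sum, against 6.69% ± 0.192 of the whole sum for the 21 antenna genes. With FPKM multiplied by transcript length, the ribosomal share was 4.16% ± 0.0523 and that of the antenna 5.77% ± 0.0522. Of the 211, 197 reached 1 FPKM, 165 reached 100 and none reached 1000, and 9 were listed at 0. Their highest, AT5G20290, for an S8e family protein, had 838, 851 and 857 FPKM, and the median member had 256. Only 1 of the 100 highest coding genes was a cytosolic ribosomal protein gene. The 36 plastid ribosomal protein genes had a median of 328 FPKM, with SSR16 the highest at 1065, 1015 and 1056. The 10 listed mitochondrial ribosomal protein genes had a median of 25.3 FPKM and a maximum of 69.5 at AT2G21290. Among elongation and initiation factors, the EF-Tu family gene AT5G60390 had 1039, 1019 and 1032 FPKM, and the helicase EIF4A1 had 296 ± 6.47. At the other end of protein life, 36 of 38 proteasome genes lay at or above 10 FPKM but only PAC1 passed 100, at 107 ± 4.13. The polyubiquitin gene UBQ10 had 1458, 1421 and 1460 FPKM.

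The sequence upstream of the annotated start of these genes was searched for short motifs. Windows of 250 bases before the start were read from RefSeq TAIR10.1 and read on both strands for the G-box CACGTG, the I-box GATAAG, the site II motif TGGGCC or TGGGCT, and the telo-box AAACCCTA. Site II and telo-boxes are known from promoters of ribosomal protein and growth genes, and G-boxes and I-boxes from light-regulated promoters. The windows below show the Rubisco gene in whose window boxes were found, the higher Rubisco gene with none, and a pair of high ribosomal protein genes; capitals mark the motifs. They lie at chr5:15382072-15382321, minus strand, for RBCS2B, at chr1:25049668-25049917, minus strand, for RBCS1A, at chr5:4936430-4936679, minus strand, for AT5G15200, and at chr5:694516-694765, minus strand, for AT5G02960. Each is written 5′ to 3′ along the gene.
RBCS2B: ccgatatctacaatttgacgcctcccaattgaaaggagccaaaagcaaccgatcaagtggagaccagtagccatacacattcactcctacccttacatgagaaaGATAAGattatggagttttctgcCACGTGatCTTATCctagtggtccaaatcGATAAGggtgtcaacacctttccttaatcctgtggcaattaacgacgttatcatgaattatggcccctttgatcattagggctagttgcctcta
RBCS1A: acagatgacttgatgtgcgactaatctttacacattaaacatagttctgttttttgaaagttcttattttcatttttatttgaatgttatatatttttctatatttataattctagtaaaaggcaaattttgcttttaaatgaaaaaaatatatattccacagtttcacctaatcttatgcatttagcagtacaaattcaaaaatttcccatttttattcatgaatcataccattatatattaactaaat
AT5G15200: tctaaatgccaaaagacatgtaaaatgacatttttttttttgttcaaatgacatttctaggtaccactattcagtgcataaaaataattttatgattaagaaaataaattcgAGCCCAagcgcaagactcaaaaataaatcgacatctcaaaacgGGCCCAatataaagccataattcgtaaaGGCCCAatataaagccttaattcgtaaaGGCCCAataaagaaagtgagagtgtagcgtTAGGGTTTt
AT5G02960: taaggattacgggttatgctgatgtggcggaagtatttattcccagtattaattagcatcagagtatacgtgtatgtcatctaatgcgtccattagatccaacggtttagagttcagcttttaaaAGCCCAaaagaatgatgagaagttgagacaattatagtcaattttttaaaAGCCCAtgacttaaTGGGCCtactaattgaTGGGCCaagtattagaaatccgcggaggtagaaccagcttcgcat

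RBCS2B, the gene with 6656 ± 110 FPKM, has a G-box 123 bases before its start with I-boxes at 146, 115 and 94 bases, the one at 115 on the other strand. None of the 4 motifs occurs in the windows of RBCS1A, RBCS3B, RBCS1B, CAB1 or LHB1B2, which says only that these letters are not within 250 bases of the start annotated here. AT5G15200, for ribosomal protein S4, with 765, 741 and 750 FPKM, holds 4 site II motifs and a telo-box 9 bases before the start. AT5G02960, for an S12/S23 family protein, with 746, 714 and 719 FPKM, holds 4 site II motifs. Over all 211 cytosolic ribosomal protein genes, 67.8% held a site II motif and 21.3% a telo-box, against 19.2% and 4.49% of 27443 nuclear coding genes. Among the nuclear coding genes at 10 FPKM or more, the shares were 25.1% and 3.56%. The highly expressed emb2386, for ribosomal protein L19e, and the ribosomal protein gene AT5G18380, at 729 ± 36.2 FPKM, held neither. Of the 27 photosystem subunit genes 29.6% held a G-box and 25.9% an I-box, against 6.49% and 12.3% of all coding genes. At 10 FPKM or more, 7.64% and 13.2% of coding genes did. For the 21 antenna genes the G-box and I-box shares were 23.8% and 19%. For the 36 plastid ribosomal protein genes they were 8.33% and 25%, so the I-box share was not particular to photosystem genes. Among the 100 highest coding genes, 19.0% held a G-box. These shares describe letters in a window and carry no test.

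Of the 14 genes among the 100 highest coding genes that no list covered, several are known from metabolism or growth. TCTP, the translationally controlled tumor protein, had 1446, 1387 and 1407 FPKM, and THI1, of thiazole synthesis for thiamine, had 1364, 1363 and 1361. SAMDC, which supplies polyamine synthesis, had 1226 ± 15.7 FPKM, and VTC2, of ascorbate synthesis, had 1108 ± 2.698. NDPK1, a nucleoside diphosphate kinase, was less steady at 1403, 1245 and 1285 FPKM, and GRP9, a glycine-rich protein, had 1015, 930 and 848. Further thylakoid genes were among the 14, such as PSI-P at 1141 ± 13.4 FPKM.

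Water transport, metal binding and defence chemistry also reached high levels. The plasma membrane aquaporins PIP2A and PIP1B had 1885 ± 55.2 and 1536 ± 23.4 FPKM, and the tonoplast aquaporin TIP2 had 1138 ± 28.4; 14 of 38 aquaporin genes reached 100 and 5 were listed at 0. MT2B made up 58.0% of the metallothionein sum, in which MT1A counts as 0, and MT3 had 2621, 2566 and 2561 FPKM. MT1C had 573 ± 25.97 and MT2A 282 ± 7.44 FPKM. MT1B had 1.3, 3.9 and 2.3 FPKM, and AtMT4a, AtMT4b and MT1A were listed at 0. All 39 windows of 100 bases in the MT1A transcript also occur in that of AT1G07590, which was listed at 797, 786 and 752 FPKM, so a 0 for MT1A does not show that its RNA was missing. TGG1, a myrosinase that splits glucosinolates when tissue is damaged, had 1326, 1327 and 1329 FPKM. PYK10, a β-glucosidase of ER bodies, had 892 ± 9.06, TGG2 438 ± 2.42 and ESM1 368 ± 4.37 FPKM. NSP1 and NSP5, which steer the products toward nitriles, had 156 ± 3.98 and 152 ± 2.97 FPKM, against 7.50 ± 0.104 for ESP.

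The glucosinolates themselves are made by a chain-elongation and core pathway. Of 20 aliphatic genes measured, 19 reached 10 FPKM, led by IIL1 at 155 ± 0.716 and CYP83A1 at 136 ± 1.60, and the regulator MYB28 had 51.6 ± 1.79. The indole gene CYP83B1 had 103 ± 1.54 FPKM, while CYP81F2, which modifies indole glucosinolates, had 1.32 ± 0.115. In nitrogen assimilation the plastid glutamine synthetase GS2 had 1069, 1048 and 1065 FPKM and the ferredoxin-dependent glutamate synthase GLU1 had 457 ± 12.4. The nitrate reductases differed, with NIA2 at 378, 394 and 391 FPKM and NIA1 at 58.2, 60.6 and 59.2. The high-affinity nitrate transporter NRT2:1 was at 0.693 ± 0.205 FPKM.

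The heat shock, cold, hormone and antioxidant lists held both high and low genes. HSC70-1, a constitutive chaperone, had 1482 ± 6.66 FPKM and the cytosolic HSP81-2 338 ± 3.43, while the heat-inducible HSP90.1 and HSP101 had 37.1 ± 0.858 and 14.6 ± 0.233. No salicylate, jasmonate or touch gene reached 100 FPKM, a level reached by 4.85% of all coding genes. PR1, a marker of salicylate signalling, had 49.1, 48.5 and 49.3 FPKM, PR5 12.4 ± 0.459 and the jasmonate-responsive VSP2 22.4 ± 0.983. The jasmonate-responsive gene JR1 had 87.7 ± 3.00 FPKM. Of the cold and abscisic acid list, the dehydrin ERD14 had 340 ± 1.96, KIN2 144 ± 6.89 and LTI65 1.36 ± 0.201. FSD1, the iron superoxide dismutase, had 1087 ± 7.94 FPKM, against 58.0 ± 0.773 and 53.2 ± 5.04 for the copper enzymes CSD2 and CSD1.

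In the circadian clock, morning and evening genes repress one another and peak at different times of day. AT3G54500, whose synonym is LNK2, had 461, 466 and 470 FPKM. The morning regulators LHY and CCA1 had 301, 295 and 300 FPKM and 273, 268 and 275 FPKM. In contrast, the evening gene TOC1 had 6.03, 6.03 and 6.89 FPKM and GI 9.68, 10.2 and 10.2. PRR9 and PRR7, repressors of the morning and day, had 29.3 ± 1.296 and 25.4 ± 0.325, while PRR5 and PRR3 were below 1 FPKM in every library. PCL1, also called LUX, ELF4 and ELF3, which form the evening complex, had 3.78 ± 0.390, 3.78 ± 0.245 and 6.68 ± 0.471. The labels do not give the hour of harvest. All 10 photoreceptor genes were above 1 FPKM, led by the phototropin PHOT2 at 122, 128 and 125 FPKM and the cryptochrome CRY1 at 64.0, 63.6 and 61.7. The phytochromes spanned from PHYB at 29.2 ± 1.0999 to PHYD at 4.71 ± 0.477.

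**Figure D3:**
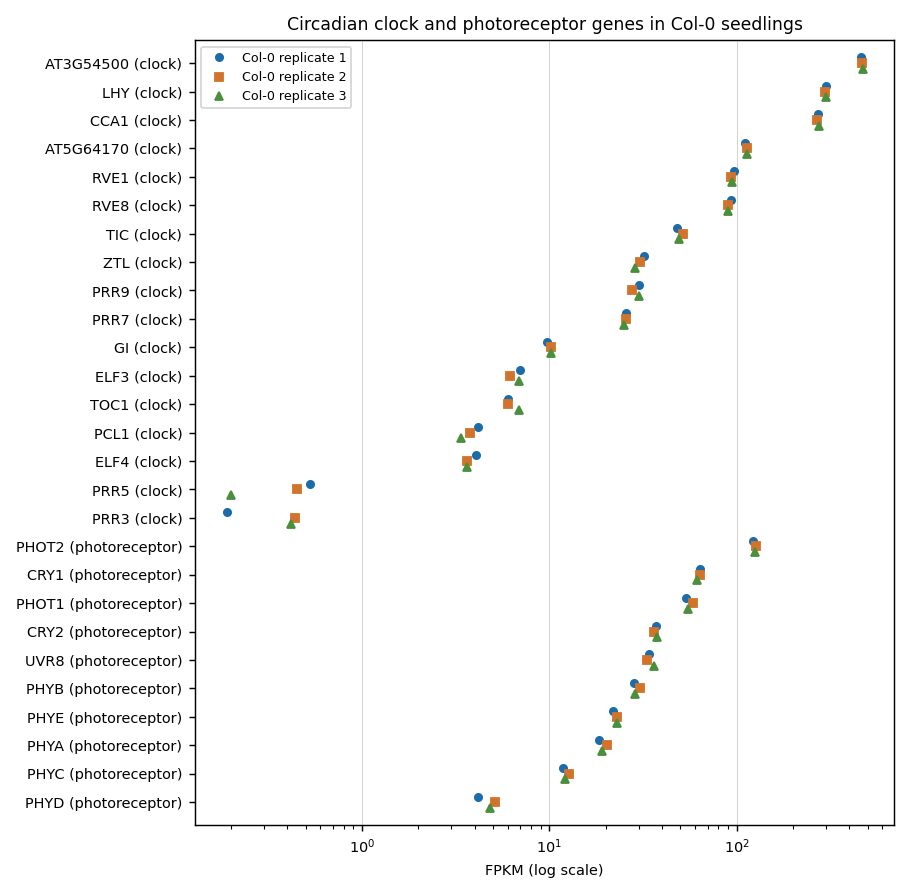
FPKM (horizontal log axis) of 17 clock genes and, below them, 10 photoreceptor genes, with 1 point for each Col-0 replicate. LHY and CCA1 stand near 299 and 272 FPKM while PRR5 and PRR3 lie below 1 FPKM, where the 3 points separate.

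Transcription factor genes were measured in 16 families. The families were listed by gene symbol, so members under other names are left out and the shares are those of the listed genes. Of 766 listed members, 503 reached 1 FPKM, which is 65.7%, against 67.2% of all coding genes. At 100 FPKM or more there were 20, which is 2.61%, against 4.85% of all coding genes, and the 766 together held 1.16% ± 0.0383 of the FPKM sum. Among those at 1 FPKM or more the median was 10.4, against 12.8 for all coding genes. The CONSTANS-like and B-box family stood highest, with 9 of 29 members at 100 or more. COL4 had 321, 335 and 326 FPKM, STO, a B-box protein of light signalling, 308, 295 and 311, and COL3 254, 255 and 258. EBP, an ethylene-response factor, had 196 ± 6.19 FPKM. The light-signalling bZIP gene HYH had 153 ± 7.02 and bZIP2 166 ± 2.74. PIL6, also known as PIF5, led the bHLH list at 116 ± 0.763, NAC083 the NAC list at 108 ± 5.27 and HB-1 the homeodomain list at 107 ± 3.38 FPKM. IAA7 had 128 ± 3.96 FPKM and was the highest of 4 Aux/IAA repressors at 100 or more, and ARF2 had 86.1 ± 0.654. The MADS family lay at the low end. Of its 93 measured members 26 reached 1 FPKM and 38 were listed at 0, and its highest were the floral repressors SVP at 52.0 ± 2.01 and MAF1 at 40.2 ± 3.19. WRKY70 at 39.5 ± 2.07 led the WRKY list, RGA1, a DELLA repressor of gibberellin signalling, the GRAS list at 58.3 ± 1.23, and MYB59 the MYB list at 56.6 ± 5.34.

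The label of whole seedlings was checked against tissue markers. All 4 mesophyll markers exceeded 1000 FPKM and all 7 epidermis markers exceeded 10, with LP1, a lipid transfer protein also called LTP1, at 1049 ± 25.7 and the homeodomain gene ATML1 at 31.7 ± 0.633. The guard cell list summed to 1388 FPKM, but TGG1 made up 95.6% of it, and the ion channel KAT1 had 10.7 ± 0.419. Phloem was represented by SUC2, the companion cell sucrose transporter, at 78.4, 78.5 and 80.0 FPKM, and xylem by XCP2, a cysteine protease, at 50.02, 50.5 and 50.4. Root markers were detected, with SCR at 25.6, 24.5 and 27.0 FPKM and CASP1, of the Casparian strip, at 20.9, 17.0 and 17.3, while all 8 root hair markers lay between 1.05 and 6.13. The 3 root cap markers were below 1 FPKM in the mean. In the shoot apex, KNAT1 had 8.69 ± 0.401 and STM 2.79 ± 0.345 FPKM, and WUS was listed at 0. Markers of flowers, pollen and seeds were at or near 0. Of the flower list only SEP3 and SEP1 reached 1 FPKM, at 1.83 ± 0.348 and 1.39 ± 0.407, and no pollen or seed marker did. Of 4 senescence markers, the protease SAG12 was listed at 0, while SEN1 had 135 ± 6.20 FPKM, SAG13 32.9 ± 1.66 and NYE1, of chlorophyll breakdown, 23.9 ± 0.211.

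**Figure D4:**
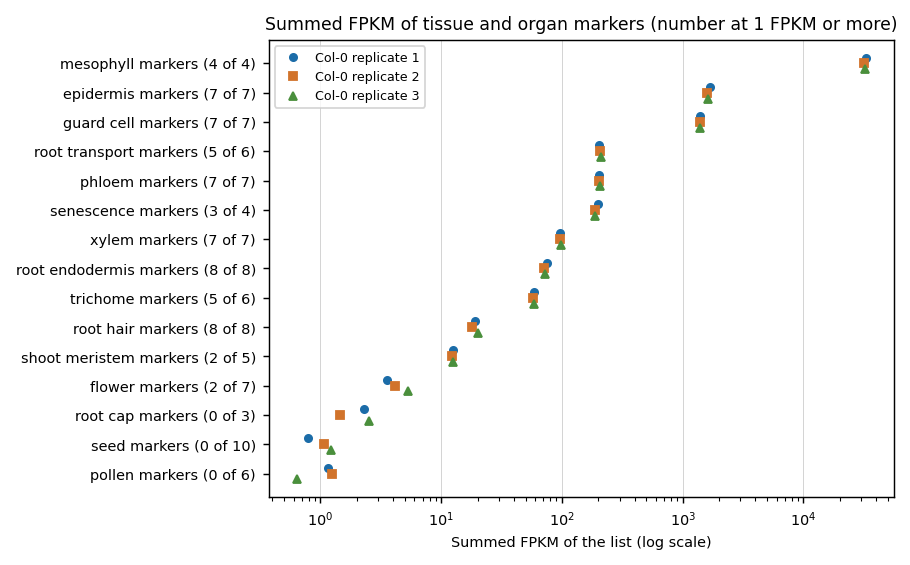
Summed FPKM (horizontal log axis) of 15 marker lists, with 1 point for each Col-0 replicate and, in brackets, the members with a mean of at least 1 FPKM out of those measured. Mesophyll markers sum to about 32338 FPKM, and pollen and seed markers to about 1.02 and 1.03.

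No gene of the cell division, cell wall, histone, tubulin or actin lists reached 1000 FPKM, a level reached by only 88 of all 27441 coding genes. CYCD3;2, a D-type cyclin, had 64.0 ± 2.36 FPKM and was the highest of 22 cell cycle genes, all of which reached 1. The cellulose synthases of the primary wall, CEV1, CESA1 and CESA6, had 99.2 ± 1.18, 86.2 ± 2.36 and 80.7 ± 1.74 FPKM. Those of the secondary wall, CESA4, IRX3 and IRX1, had 7.78 ± 0.277, 5.63 ± 0.422 and 5.51 ± 0.437, and the ranges of the groups did not overlap. EXPA1, which loosens walls, had 163 ± 6.75 FPKM and XTH4 204 ± 11.1. Of the histone genes, the H3 gene AT4G40030 led at 321 ± 6.31. TUA6 led the tubulins at 200.0 ± 1.23 and ACT2 the actins at 407 ± 3.63.

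Among 19 genes used as references in quantitative PCR, levels and spread differed widely. UBQ10 had a CV of 1.499% and GAPC2, cytosolic glyceraldehyde-3-phosphate dehydrogenase, one of 0.0188%, with 1036, 1036 and 1035 FPKM. ACT7 at 255 ± 0.939 and TUB2 at 119 ± 0.384 FPKM had CVs of 0.368% and 0.322%. PP2AA3, a phosphatase subunit, had 36.4, 35.5 and 34.1 FPKM and a CV of 3.15%, and AT4G26410 one of 6.96% at 38.5 ± 2.68. AT5G55840 had 3.20 ± 0.294 FPKM and a CV of 9.19%, and AT1G58050 was listed at 0, 0.0200 and 0. Over coding genes, the median CV was 9.23% between 1 and 10 FPKM, 3.66% between 20 and 50 and 2.21% between 100 and 500. Whether the reference genes differ in steadiness at a like level was not tested. Of the genes that the mutants of the study concern, CYP71, a nuclear cyclophilin, had 16.9, 17.6 and 19.1 FPKM and SE, the SERRATE protein of miRNA processing, had 30.7, 33.3 and 31.1. The Argonaute gene AGO1 was the highest of 14 genes of the miRNA machinery at 68.6 ± 0.421, and HST the lowest at 5.49 ± 0.514.

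The 3 libraries were close to one another. The median CV was 5.27% over 18891 genes with a mean of at least 1 FPKM and 3.69% over 10680 genes of at least 10. It was 9.23% between 1 and 10 FPKM, 3.66% between 20 and 50, 2.21% between 100 and 500, 1.91% between 500 and 2000 and 2.04% at 2000 or more, so it fell with level up to 2000 FPKM and not beyond. Of 18450 coding genes, 48.4% had all 3 values within 1.1-fold. With 1 FPKM added to each value, between 0.786% and 1.01% differed by over 1.5-fold in a pair of libraries. The added 1 FPKM makes the ratios of low genes smaller. Besides GAPC2, the lowest CVs at 10 FPKM or more belonged to GAPB, the kinase subunit CKB3, the oxygenase-family AT2G25450, AT2G17340, AT5G02870 for a ribosomal protein L4/L1, NPQ4, GOX1, MAT3 and the chitinase AT4G01700, all at or under 0.0942%. These 10 genes were named by their place in the order of CVs, and whether they are steadier than others was not tested.

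**Figure D5:**
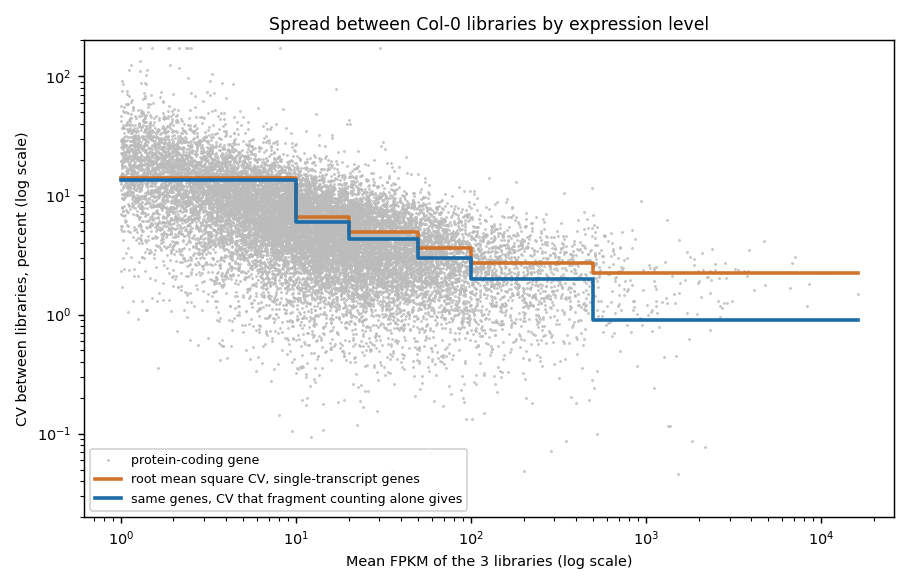
CV between the 3 Col-0 libraries in percent (vertical log axis) against mean FPKM (horizontal log axis) for coding genes with a mean of at least 1 FPKM and a CV above 0 (grey points). The upper line is the root mean square CV of single-transcript genes by level, 14.1% between 1 and 10 FPKM and 2.23% at 500 or more, and the lower line is the CV that counting fragments alone would give, 13.5% and 0.908%.

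Low values moved in steps, from which depth was read. The genes used were coding genes at 0.2 to 1 FPKM with a single annotated transcript of 600 to under 1500 bp. Their values multiplied by the transcript length less 264, 250 and 264 bp were whole multiples of 61.8, 70.8 and 57.8. This held within 0.1 of a step for 98.7%, 98.7% and 98.9% of 636, 633 and 652 genes, against 20% of evenly spread values. The lengths and steps were fitted to these same genes. The libraries stood on these steps at relative depths of 1.15, 1 and 1.22. On the recovered scale, the variance between a pair of libraries was 1.104 to 1.12 times that of counting at 1 to 3 FPKM and 2.55 to 3.61 times at 300 or more. The root mean square CV between 1 and 10 FPKM was 14.1%, and counting alone gave 13.5%. At 500 FPKM or more it was 2.23%, and counting alone gave 0.908%.

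Ratios between libraries moved with transcript length. In genes of 300 to 700 bp the median log2 ratio was 0.08 for replicate 1 over replicate 2 and 0.05 for replicate 1 over replicate 3. In genes over 3500 bp both were -0.04. Of the 25 highest coding genes, 23 had their lowest value in replicate 2, the exceptions being LHCB3 and CA1, and the part of the length trend in this was not tested.

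Few genes stood out between libraries. At a mean of 10 FPKM or more, 25 genes had a CV of at least 50%: 17 nuclear noncoding genes, 6 organelle genes and 2 coding genes, AT5G44566 of 180 bp and AT2G36030 of 213 bp. Of the 25, 18 are annotated under 300 bp. AT3G41768, 18S ribosomal RNA, had 1481, 384 and 367 FPKM, and the miRNA precursor gene MIR2936 had 34.7, 449 and 334. The chloroplast genes ATCG00020 and ATCG00270 had 97.4, 43.6 and 39.7 FPKM and 17.7, 8.89 and 6.88. Replicate 1 was thus highest for this 18S ribosomal RNA gene and for these chloroplast genes, while ATCG00960 was above 0 in replicate 2 alone. The chloroplast genome without ATCG00960 held 0.0322% to 0.0496% of a library's FPKM sum.

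Among coding genes of at least 300 bp with a symbol, the largest CV at 10 FPKM or more was that of PGLP1, 43.0%. With AT5G36790, a near-identical copy, it spans 62746 bp on chromosome 5. AT5G36790 had 7.73, 15.5 and 10.9 FPKM, and 91.0% of the windows of PGLP1 also occur in it, so the value of each is uncertain. The sum of the pair was 19.3, 44.4 and 30.8 FPKM, a CV of 39.9%, and the part of the shared windows in this spread was not tested. TOM7-2 followed with 18.6, 11.4 and 10.8 FPKM, BNS with 27.2, 23.7 and 16.7 and LSU3, a sulphur starvation gene, with 19.7, 14.1 and 22.9. The other 16 of the 20 largest had CVs between 17.6% and 21.7%, among them PDF1.2b, a defensin, at 7.70, 10.9 and 11.9 FPKM and ARR6, a cytokinin response regulator, at 12.2, 8.84 and 9.39. ATRZ-1A, at 8.61, 9.83 and 12.8 FPKM, shares 90.9% of its windows with AT3G26430. Of the 20 genes, 9 were highest in replicate 1, 4 in replicate 2 and 6 in replicate 3, and MAF3 had 13.6 FPKM in both replicates 1 and 2. Genes that share at least 50% of their windows were few, 19 of 10587 coding genes at 10 FPKM or more. Of the 19, 3 had a CV of at least 20%, and these were PGLP1, its copy AT5G36790 and ATRZ-1A, all named above. Such a CV was found in 29 of 10217 genes with no shared window and in 0 of 351 that share some but under 50%. Whether shared windows go with a larger CV was not tested.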

How the data were processed

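The mRNA libraries of 3 samples of 2-week-old Col-0 seedlings were analysed. Per the labels' protocols, TRIzol RNA was enriched on mRNA capture beads and broken to 200 to 300 bp before adapter ligation, PCR and Illumina sequencing. The authors deposited FPKM per gene with 2 decimals, in a file for each library. The submitters' processing notes name TAIR10 as the build and list Cuffdiff, Cuffnorm, STAR 2.7.2b and Trim Galore 0.6.7. What each tool did, which annotation was counted, how libraries were scaled and whether strand was used is not given in the sources used here. Because FPKM divides by length, genes shorter than a fragment rest on few fragments, and a few abundant genes can move the shares of all others.

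From the deposited FPKM, means, SDs, CVs and shares were computed with Python 3.11.15 and pandas. Names, lengths, types and sequence came from RefSeq TAIR10.1, matched by locus for 32538 of 32823 genes; the 285 unmatched are organelle genes. Spread was described from a mean of 1 FPKM, and single genes of high CV from a mean of 10. Named were the 25 highest genes, members of each list by level and by highest CV, all clock, reference, Rubisco, metallothionein, nitrate reductase and myrosinase genes, the 20 highest and 10 lowest CVs, and CYP71 and SE; any others were chosen after their values were seen, including the noncoding and organelle genes of high CV, MT1A's partner AT1G07590, and the highest genes outside the lists. The members and lists were chosen with earlier results of these data known. A locus each of the aliphatic glucosinolate, expansin and MADS lists is not analysed here.

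Fragment steps were read from low FPKM values with a grid of lengths and steps, a choice made after seeing the data. On simulated data the fit returned the lengths and steps put in. The simulation used the fitted values and the same formula, so it cannot show that the deposited values follow that formula. Depth is otherwise not given. No groups were compared, so no statistical test was run.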

Additional observations from a re-analysis of the deposited data

How the results depend on the processing

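Of 72 recomputed values of 9 results, 46 stayed within the spread between libraries, or within 1.5-fold for counts, and 26 did not. For the median CV, the limit was instead the SD of the medians with 1 library left out, 0.190 in percent. Those medians are lower by construction and count among the 26. Leaving out genes under 300 bp, the share of the 10 highest genes was 9.22%, of the 100 highest 27.9%, of photosystem and antenna genes 13.0%, of Rubisco small subunit genes 4.09% and of cytosolic ribosomal proteins 6.69%. Over coding genes alone, an alternative chosen after seeing the data, they were 9.12%, 27.7%, 13.1%, 4.14% and 6.82%. With FPKM multiplied by transcript length, they were 7.40%, 24.99%, 9.53%, 3.34% and 4.16%, and 852 genes held 50% of the sum. This product stands only roughly for fragments, because the fitted steps used the length less 264, 250 and 264 bp. Leaving out organelle genes or using medians kept all of these shares, and the count of genes that held 50%, within the spread. The median CV was 6.19% after rescaling to TPM, 3.69% at a mean of at least 10, 6.85% with no filter, and 0.0683 as the SD of log2(FPKM + 1), a different scale. The count of genes with a CV of 50% or more was 48 at a mean of at least 5, 5 at a mean of at least 50, and 2 among coding genes. Leaving out 1 library at a time, the shares ranged from 12.7% to 14.3% for the 10 highest genes, from 31.0% to 32.6% for the 100 highest, from 12.1% to 12.4% for photosystem and antenna genes, from 3.81% to 3.89% for Rubisco and from 6.28% to 6.43% for ribosomal proteins. In the same way 469 to 516 genes held 50% of the sum, 18864 to 18876 reached 1 FPKM, the median CV was 4.09% to 4.47%, where an SD of 2 values is smaller by construction, and 17 to 28 genes had a CV of 50% or more. No paired analysis was possible because no groups were compared. Values under 1 FPKM rest on few fragments.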

Other observations

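Of 48 glutathione transferase genes, which act in detoxification, 87.5% reached 1 FPKM and 18.8% reached 100, against 67.2% and 4.85% of all coding genes. They were led by GSTU19 at 503, 486 and 498 FPKM and GSTF9 at 426, 402 and 428. Of 64 class III peroxidase genes, which act in the cell wall and vacuole, 73.4% reached 1 FPKM, near the share of all coding genes. PRXR1, at 512 ± 7.33, and AT3G32980, at 144 ± 4.35, were the 2 that reached 100. PRXR1 made up 34.1% of the summed FPKM of the peroxidase list. Among lipid transfer proteins, LP1 made up 61.0% of the sum, LTP5 had 423 ± 11.6 FPKM, and LTP4 had 1.86, 0.370 and 0.820.

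Chromosome 1 held 26.1% of the nuclear coding genes and 28.4% ± 0.0187 of their FPKM. Chromosome 5, which carries the tandem Rubisco genes, held 23.1% of the genes and 21.5% ± 0.0240 of the FPKM.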
